A study of Mus musculus with 12 samples.

Results

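The replication-dependent histone genes were taken as every protein-coding gene of mouse GENCODE M21 (build mm10) whose symbol begins with Hist1h, Hist2h, Hist3h or Hist4h. There were 67 of them among 21755 protein-coding genes on the autosomes and chromosome X, and genes less than 500 kb apart were joined into 5 clusters. Each cluster was followed through its 1 kb bins and through 200 kb on both sides. The histone genes encode 6 H1, 18 H2A, 18 H2B, 12 H3 and 13 H4 proteins.

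Okazaki fragments, the short pieces of the lagging strand, had been labelled with EdU in mouse embryonic stem cells and sequenced (OK-seq) to read the direction of replication forks. The 12 samples form 6 groups of 2 replicates, made from naive cells kept in LIF and 2i and from epiblast-like cells (EpiLC, the labels' formative state) after withdrawal of LIF and 2i. Each state held a control, a double knockout (dKO) and a double catalytic dead line (dCD). The control lacked KMT2C, the dKO had in addition lost KMT2D through a tamoxifen-driven Cre, and the dCD carried inactive catalytic domains of both enzymes, so all groups lacked KMT2C activity. The dCD cells came from a 129 line and the other lines from a mixed C57BL/6 and 129 background, so that genotype and line cannot be told apart for dCD. The deposited tables sum both replicates of a group, which leaves 1 value per group and no spread between replicates. Differences below are therefore between 6 libraries, no test of a condition was possible, and every interval is a 95% interval for counting error alone. The reads carry no molecular identifiers.

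Histone proteins package newly made DNA, and most of them are needed in quantity only while DNA is being copied. The replication-dependent genes are short, lack introns and a poly(A) tail, and end their mRNAs in a conserved stem-loop that the stem-loop binding protein reads. They lie in clusters that gather, with the transcription factor NPAT, in nuclear histone locus bodies. Replication-independent variants such as H3.3 and H2A.Z are encoded by genes outside these clusters.

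The stem-loop marks the members independently of their names, so its sequences are shown first. The pattern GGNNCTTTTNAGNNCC was looked for on the coding strand within 150 bases after the stop codon. It was found in 63 of 67 members (94.0%) and in 3 of 21513 other protein-coding genes with a stop codon (0.0139%), which were H2afx, Lrrc75b and H2bfm. It began 22 to 59 bases after the stop, with a median of 31. Capitals mark the stem and lower case the loop. The most frequent form was shared by 41 members of the H1, H2A, H2B and H3 families, here at chr3:96238485-96238500 (minus strand) behind Hist2h3c2. The second occurred in 9 members of the same families, here at chr3:96220333-96220348 behind Hist2h2ab. The last 2 were found behind H4 genes only, 8 members with the form at chr6:136803998-136804013 (minus strand) and 2 members with the form at chr13:21735437-21735452.
Hist2h3c2: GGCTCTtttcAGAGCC
Hist2h2ab: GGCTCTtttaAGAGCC
Hist4h4: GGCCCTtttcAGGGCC
Hist1h4j: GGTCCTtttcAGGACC

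Members without the pattern were Hist2h2be, Hist1h2an, Hist1h3g and Hist1h4a. The proximal promoters show the elements that the gene family shares, and 3 genes at cluster edges are printed because fork direction is reported around their starts. RefSeq promoters (GRCm38.p6, 250 bases before to 50 after the start) were matched for 62 of 67 members. The TATA box TATAAA was present on either strand in 56.5% of members and in 13.6% of all 32851 promoters. The CCAAT box was present in 85.5% against 37.4%, and the octamer ATTTGCAT in 20.97% against 1.74%. Matches to different motifs do not overlap in the 3 promoters printed. The lines below give the 130 bases before the start on the plus strand, at chr3:96219755-96219884, chr11:58954555-58954684 and chr13:23934307-23934436, with these 3 motifs in capitals in either orientation.
Hist2h2ab: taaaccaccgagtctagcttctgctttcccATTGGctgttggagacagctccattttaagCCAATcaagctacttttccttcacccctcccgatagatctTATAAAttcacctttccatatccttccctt
Hist3h2a: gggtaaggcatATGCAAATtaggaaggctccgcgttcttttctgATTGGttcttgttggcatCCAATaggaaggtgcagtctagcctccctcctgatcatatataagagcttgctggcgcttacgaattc
Hist1h2aa: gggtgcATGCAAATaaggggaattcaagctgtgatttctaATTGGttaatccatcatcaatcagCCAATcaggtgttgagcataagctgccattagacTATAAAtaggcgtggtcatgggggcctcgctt

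The clusters were of unequal size. Hist2 (chr3:96219865-96270132) held 10 genes from Hist2h2ab to Hist2h2bb, Hist4 (chr6:136801553-136804415) the single gene Hist4h4, and Hist3 (chr11:58948920-58956830) the pair Hist3h2ba and Hist3h2a. Chromosome 13 carried Hist1-A (chr13:21715763-22043676, 23 genes from Hist1h2bl to Hist1h2bj) and Hist1-B (chr13:23531050-23934851, 31 genes from Hist1h4h to Hist1h2aa). The core histone families H2A, H2B, H3 and H4 all occurred in Hist2, Hist1-A and Hist1-B, while all 6 H1 genes lay in the Hist1 clusters, 1 in Hist1-A and 5 in Hist1-B. Of the members, 37 lie on the plus strand and 30 on the minus strand.

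Naive libraries held 3655095 to 4409068 reads and EpiLC libraries 11407678 to 13601460. An average 25 kb window thus held 35.5 to 42.9 reads in naive and 111 to 133 in EpiLC. A bin above 10 times a library's median of bins with reads was left out of all libraries, which removed 126 bins of the genome. Fork direction spread over the genome by an SD, between 50 kb bins and after taking off counting noise, of 12.5, 13.2 and 16.4 points in naive control, dKO and dCD and 9.70, 10.6 and 12.2 points in EpiLC. This spread was thus wider in dCD than in the control of the same state.

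Near-identical copies limit what 50-base reads can show in these regions. Median identity between coding sequences of equal length was 96.7% in H2A, 95.6% in H2B, 97.5% in H3 and 93.9% in H4, and 4 pairs of members had the same coding sequence (Hist2h2aa1 and Hist2h2aa2, Hist1h2bq and Hist1h2br, Hist1h2ao and Hist1h2ap, Hist1h4m and Hist1h4n). The share of 50-base words found once in the genome had a median of 56.7% over the members and was under 50% in 28 of them. Over the whole gene, H1 genes had 91.7% to 100% unique words, although in the coding sequence alone it was 75.4% in Hist1h1d, 76.4% in Hist1h1e and 79.7% in Hist1h1c. By contrast, 17 of the 23 members of Hist1-A lay under 50% and 4 were at 0%.

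Over the clusters with their flanks, read density followed this share. In naive control, bins with under 50% unique words held 0.194 reads per kb, bins from 50% to under 90% held 1.49, and bins at 90% or more held 2.35. In EpiLC control the same classes held 0.659, 4.20 and 6.21 reads per kb. All 6 libraries kept this order. The filter that the authors applied to reads with several matches is not given in the sources used here.

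**Figure D1:**
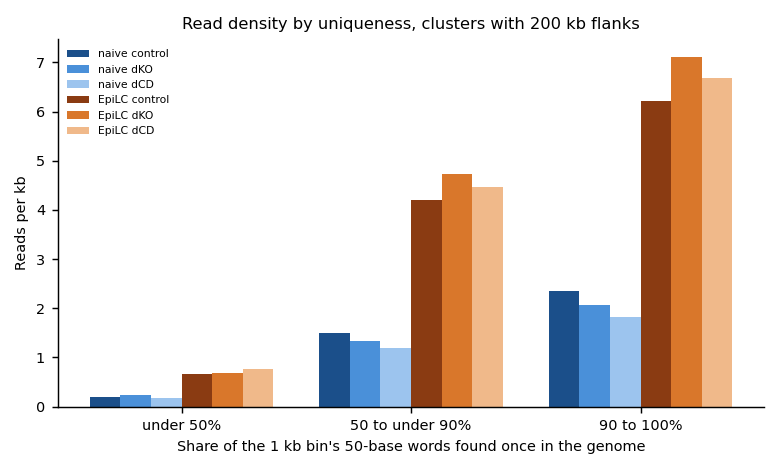
Reads per kb (y axis) in 1 kb bins of the 5 clusters and their 200 kb flanks, by the share of 50-base words found once in the genome (x axis), with a bar for each of the 6 libraries. In every library the bars rise from the least to the most unique class, from 0.164 to 0.759 reads per kb on the left to 1.83 to 7.11 on the right.

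Few reads fell in an inverted repeat inside Hist1-A (chr13:21806612-21837530), which carries Hist1h2bq, Hist1h2ao and Hist1h4m in one arm and Hist1h4n, Hist1h2ap and Hist1h2br in the other. Its 32 bins held 26, 27 and 17 reads in naive control, dKO and dCD and 57, 53 and 72 in EpiLC. Density there was 0.228 to 0.4003 times that of the rest of Hist1-A. No library had a read in the 11 bins around the middle of Hist1h2bq, Hist1h2ao or Hist1h4m, so fork direction at these 3 genes rests on reads farther away. In Hist1-A, bins that overlap a histone gene held 0.447 to 0.702 times the reads per kb of the other bins of the cluster. In Hist1-B, where 92.9% of the words are unique, the same ratio was 1.16 to 1.248. Its 103 histone gene bins include long annotated spans, 37455 bp at Hist1h2be, 8710 bp at Hist1h2bc and 7425 bp at Hist1h1d. The ratios of Hist1-A and Hist1-B thus do not compare bins of like genes.

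Fork direction was read from the share of Crick-strand reads. A share above 50% marks forks moving rightward, toward higher coordinates, and a share that rises from left to right marks a place where more forks start than end. The 5 clusters lay in different settings. In all 6 libraries the share fell across the 50 kb on each side of Hist2, rose over the same distance across Hist3, rose along Hist1-A and fell along Hist1-B. Around Hist4 its direction differed between libraries and with the length compared.

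**Figure D2:**
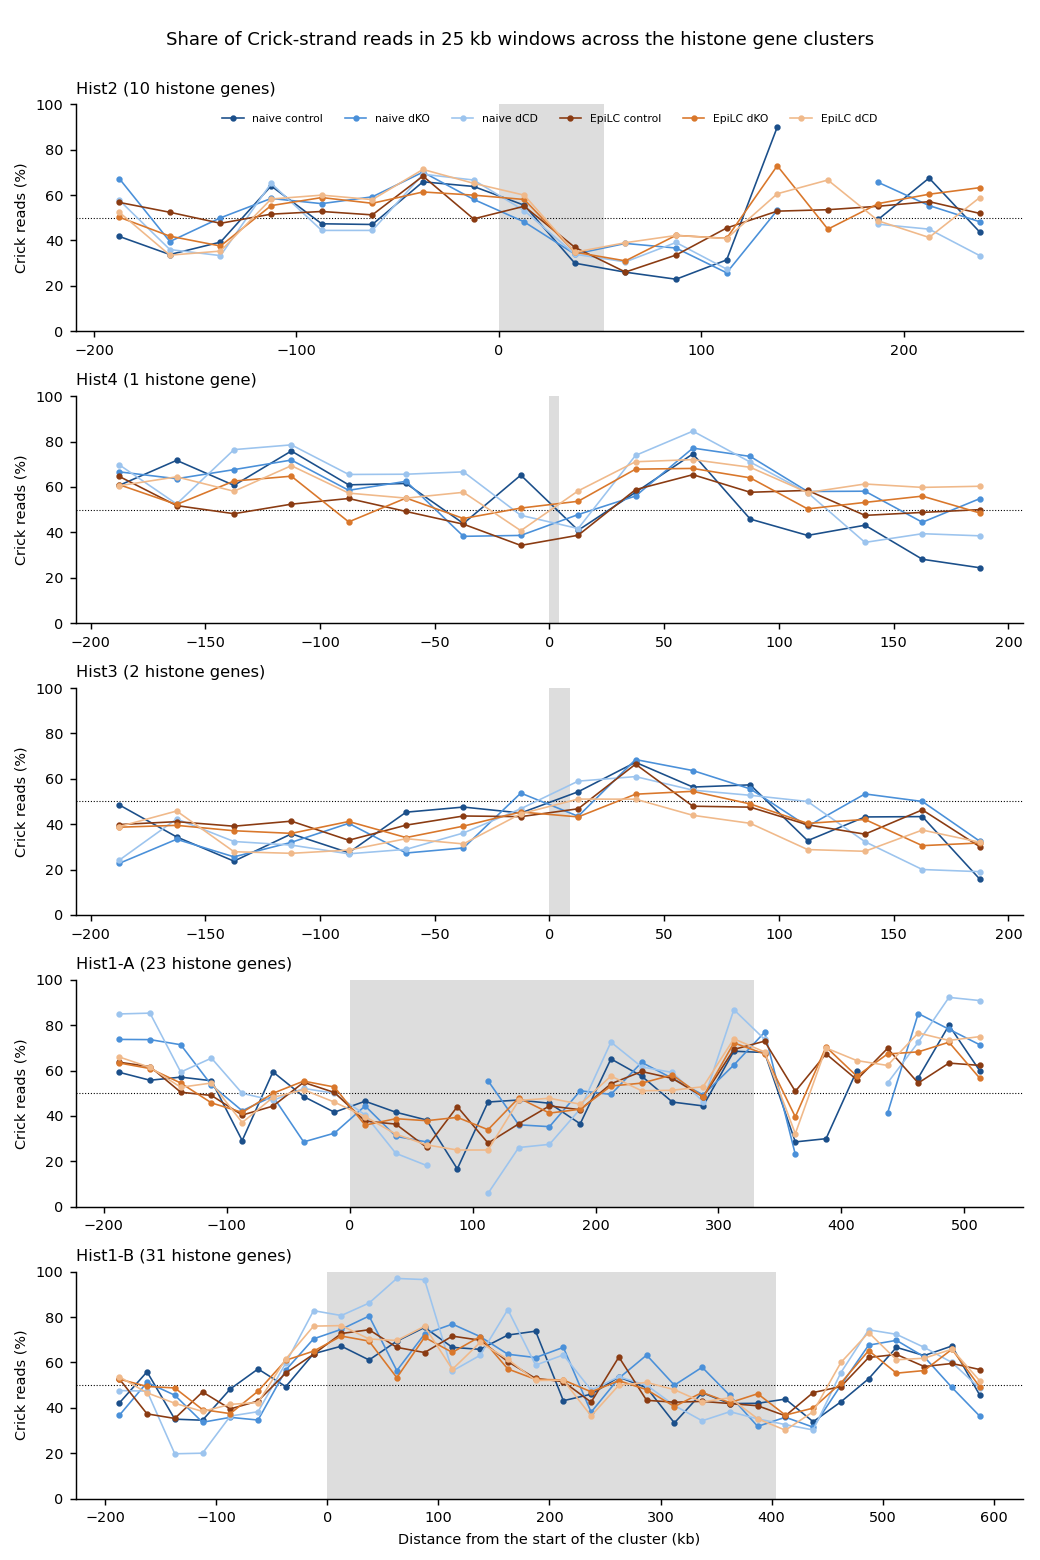
Percentage of Crick-strand reads (y axis) in 25 kb windows against distance from the start of each cluster in kb (x axis), with a line for each of the 6 libraries, the cluster in grey and windows of under 10 reads left out. Lines fall through Hist2, rise to the right of Hist3 and Hist4, rise along Hist1-A and fall along Hist1-B, with naive dCD highest at the left end of Hist1-B.

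Across Hist2 the Crick share fell. In the 50 kb to its left it was 65.2%, 65.5% and 68.1% in naive control, dKO and dCD and 61.2%, 60.9% and 68.6% in EpiLC control, dKO and dCD. In the 50 kb to its right it was 26.1%, 38.6% and 33.3% in naive and 30.4%, 36.7% and 41.2% in EpiLC. The difference was −39.0 points (−49.5 to −26.8) in naive control and −30.8 points (−38.2 to −22.8) in EpiLC control, and it lay between −24.1 and −34.8 points in the mutants. Every interval excluded 0. Of windows of the same length over the genome with at least 20 reads in the 50 kb on each side, 0.0769% to 2.80% had a lower difference in the 6 libraries. The flank length set at the start was 200 kb, and 50 kb was a shorter alternative to it. With flanks of 200 kb the differences were −6.83 points (−13.3 to −0.281), −11.5 (−18.6 to −4.25) and −12.2 (−19.5 to −4.60) in naive control, dKO and dCD. In EpiLC they were −7.56 points (−11.6 to −3.44), −3.06 (−6.90 to 0.782) and −9.41 (−13.3 to −5.52), and 19.8% to 41.9% of genome windows had a lower difference over this distance, so that Hist2 did not stand apart there.

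Within Hist2 the share fell along the genes. Summed over the 3 genotypes, the first 25 kb of the cluster, with Hist2h2ab to Hist2h2aa2, had 52.2% Crick reads in naive and 57.7% in EpiLC. The next 25 kb, with Hist2h2aa1, Hist2h3c1, Hist2h4 and Hist2h3b, had 32.4% and 35.5%. In narrower windows of 5 kb on each side of a gene's middle, with all 6 libraries summed, the Crick share was 61.6% (55.97 to 66.99) at Hist2h2ab, 48.7% (42.9 to 54.5) at Hist2h3c2, 42.4% (36.5 to 48.5) at Hist2h2aa1 and 27.7% (22.5 to 33.3) at Hist2h3b. The fall thus ran over most of the cluster. The right flank held few reads 125 to 175 kb from the cluster's start, 34 and 27 reads per 25 kb in the summed naive libraries against 220 in the window before, and this flank had 65.6% unique words against 94.0% on the left.

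To the right of Hist3 the share rose, and at Hist4 its direction depended on library and flank length. In the 50 kb to the left of Hist3 the Crick share was 46.2%, 40.9% and 42.2% in naive control, dKO and dCD and 43.5%, 42.4% and 38.4% in EpiLC. To its right it was 61.7%, 64.4% and 58.4% in naive and 56.8%, 49.5% and 51.1% in EpiLC. All 6 differences were positive, from 7.08 points (0.130 to 13.9) in EpiLC dKO to 23.5 points (10.7 to 35.3) in naive dKO. With flanks of 200 kb they ran from 3.58 points (−0.710 to 7.85) in EpiLC dCD to 20.2 points (13.4 to 26.8) in naive dKO. A local maximum of this rise in naive cells fell 10.2 kb to the right of Hist3h2a, within Trim17. The EpiLC libraries had 12.8, 8.12 and −1.38 points there, and no EpiLC maximum of at least 10 points was found in Hist3 or its flanks.

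At Hist4h4 the corresponding difference was 16.6 points in naive dKO, 8.84 points in naive dCD, and 12.5, 14.4 and 17.2 points in EpiLC control, dKO and dCD. Naive control had −5.59 points (−18.9 to 8.06). With flanks of 200 kb the naive values were −15.1 points (−21.9 to −8.10) in control, 1.67 (−6.04 to 9.37) in dKO and −9.25 (−17.1 to −1.23) in dCD. The EpiLC values were then 3.64 points (−1.02 to 8.29) in control, 4.21 (0.0236 to 8.37) in dKO and 6.26 (1.956 to 10.6) in dCD, so that 2 naive libraries fell over this longer distance. The Crick share 50 to 75 kb from the gene's start was 78.2% over the naive libraries and 68.8% over the EpiLC libraries. A local maximum of strand bias was found in both states, 25.6 kb from the gene in naive and 27.6 kb in EpiLC, inside BC049715. At the naive position the strand bias of the EpiLC libraries was 26.1, 20.8 and 14.1 points. Their own maximum lay beside it, so these values are not independent support.

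Along Hist1-A the Crick share rose. In the first 100 kb, with the genes from Hist1h2bl to Hist1h4m, it was 40%, 35.0% and 28.2% in naive control, dKO and dCD and 34.6%, 37.6% and 32.8% in EpiLC. In the last 100 kb, with Hist1h2ah, Hist1h2bk, Hist1h4i, Hist1h2ag and Hist1h2bj at its end, it was 52.4%, 58.6% and 63.1% in naive and 59.4%, 59.7% and 58.2% in EpiLC. The difference ran from 12.4 points (1.82 to 22.5) in naive control to 34.9 points (24.1 to 44.4) in naive dCD. These stretches of 100 kb were chosen after the profile had been seen. Over the whole cluster the opposite directions cancelled, and 48.1% to 49.8% of reads were Crick in the 6 libraries.

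Rises of at least 10 points, taken as local maxima of the mean strand bias over the 3 genotypes of a state, were found inside Hist1-A between its histone genes. One lay at chr13:21906001-21907000 in naive and 1 kb away in EpiLC, 68.5 kb from the nearest member Hist1h2br and 39.1 kb from Zfp184. At the naive position the EpiLC libraries had 11.9, 14.2 and 14.5 points. Maxima are described in both states only where the states had one within 15 kb of each other. The values of the other state are therefore not independent support. Another lay 6.16 kb from Hist1h2ah in naive and 18.2 kb from it in EpiLC, where the nearest gene was Prss16. At the naive position the EpiLC libraries had 14.5, 7.77 and 9.58 points. The remaining pair, 18.5 kb from Hist1h2br in naive and 8.47 kb from it in EpiLC, did not hold in each library. At its naive position the libraries had 24.0, 14.7 and −5.77 points in naive and 4.45, 6.60 and −8.65 in EpiLC, and at its EpiLC position the naive libraries had −1.65, −22.2 and 22.7 points.

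Hist1-B was entered by rightward forks from its left edge. In the 50 kb to its left the Crick share was 56.8%, 64.1% and 70.7% in naive control, dKO and dCD and 59.5%, 63.0% and 70% in EpiLC. In the first 100 kb of the cluster it was 68.2%, 71.7% and 89.9% in naive and 69.9%, 66.7% and 73.2% in EpiLC. In the last 100 kb it had fallen to 38.9%, 44.0% and 34.8% in naive and 40.9%, 43.9% and 42.5% in EpiLC. The fall was −29.3 points (−38.2 to −19.6) in naive control and −29.0 points (−34.3 to −23.4) in EpiLC control. The 2 states thus gave like values in the controls, and all 6 libraries fell.

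Beside the left edge, local maxima were found in both states 61.0 to 63.0 kb from Hist1h4h, near the butyrophilin gene Btn1a1, and again 24.0 kb from Hist1h4h in naive and 10.05 kb from it in EpiLC. At the second of these naive positions the EpiLC libraries had 11.1, 9.79 and 14.7 points. At the first, the EpiLC libraries had 11.7, 14.2 and 17.3 points, and naive control went the other way with −9.56 points. To the right of the cluster forks diverged again 58.2 kb from Hist1h2aa in naive and 65.2 kb from it in EpiLC, near Scgn. At the naive position the EpiLC libraries had 12.1, 19.6 and 32.9 points, and at the EpiLC position the naive libraries had 19.1, 12.5 and 42.8. A maximum inside the cluster lay in Trim38, 24.6 kb from Hist1h1a in naive and 15.6 kb from it in EpiLC. At its naive position the EpiLC libraries had 4.01, 5.50 and 9.40 points, and at its EpiLC position the naive libraries had 9.13, 14.4 and 4.68.

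Counted without regard to state agreement, the clusters themselves held 8 such maxima in naive (4 in Hist1-A and 4 in Hist1-B) and 4 in EpiLC (3 and 1), and Hist2, Hist3 and Hist4 held none. Hist1-A had 12.2 maxima per Mb in naive and 9.12 in EpiLC, against 11.9 and 7.47 per Mb over the genome. Hist1-B had 9.90 and 2.48 per Mb. The genome's higher density of maxima in naive stands beside the lower depth of the naive libraries, and the part of depth in it was not tested. Over all clusters and flanks, 13 of 31 naive maxima (41.9%) had an EpiLC maximum within 15 kb, against 47.2% of 28626 naive maxima over the genome.

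Read density, the number of Okazaki reads per kb, was compared between each cluster and its flanks. Hist1-A was denser than its flanks and Hist1-B less dense in every library. In Hist1-A there were 2.16, 1.98 and 1.71 reads per kb in naive control, dKO and dCD and 5.82, 6.72 and 6.38 in EpiLC, which was 1.67 (1.49 to 1.88), 1.72 and 1.71 times the flanks in naive and 1.53 (1.43 to 1.63), 1.57 and 1.45 times in EpiLC. Of 7731 windows of the same length tiled over the genome, 99.3% had a lower ratio in naive control. This ratio rested on the right flank, a run of Vmn1r pheromone receptor genes with 70.6% unique words and only 0.880 reads per kb in naive control, against 1.70 on the left. Over the left flank alone the ratio was 1.16 to 1.36.

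Hist1-B had 1.81, 1.75 and 1.67 reads per kb in naive control, dKO and dCD and 5.39, 6.09 and 6.40 in EpiLC. Its ratio over the flanks was 0.694 (0.630 to 0.763), 0.777 and 0.811 in naive and 0.787 (0.744 to 0.833), 0.807 and 0.859 in EpiLC, and 2.33% of 6297 windows of its length had a lower ratio in naive control. The cluster was not poor in reads against the genome, with 1.06 to 1.21 times the mean density. Its flanks were rich, with 1.41 to 1.54 times the mean, and the left flank, which holds the maxima near Btn1a1, had 3.05 reads per kb in naive control and 8.17 in EpiLC control.

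**Figure D3:**
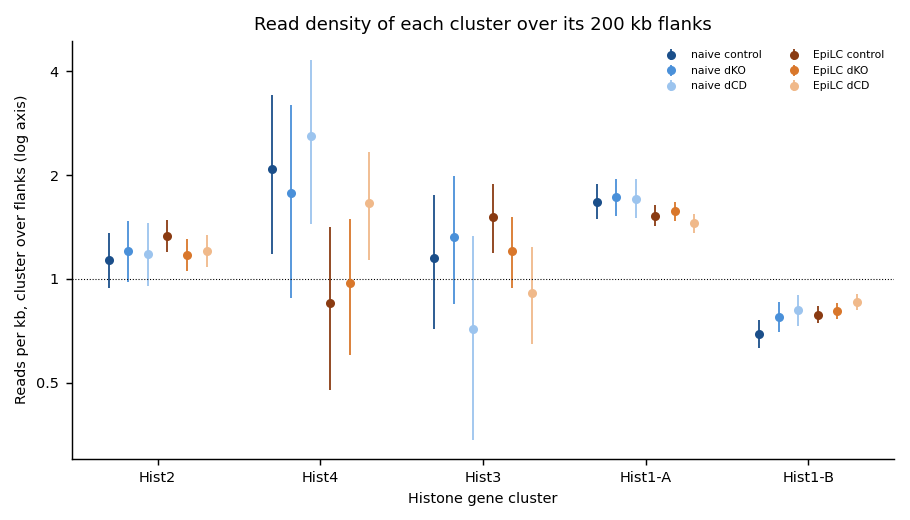
Reads per kb of each cluster over those of its 200 kb flanks (y axis, log scale) for the 5 clusters (x axis) in 6 libraries, with exact 95% intervals for counting error. Hist1-A lies above 1 in all libraries, from 1.45 to 1.72, and Hist1-B below 1, from 0.694 to 0.859, while Hist3 and Hist4 have the widest intervals.

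Hist2 had 2.58, 2.21 and 2 reads per kb in naive control, dKO and dCD and 7.65, 7.65 and 7.63 in EpiLC. Its ratio was 1.13 (0.939 to 1.36), 1.21 and 1.18 in naive and 1.33 (1.19 to 1.48), 1.17 and 1.20 in EpiLC, and only the 3 EpiLC intervals excluded 1. Hist3 and Hist4 were too small for a firm value, with 10 to 24 reads in Hist3 and 11 to 16 in Hist4 in the naive libraries. In Hist3 the EpiLC libraries held 79, 74 and 40 reads in control, dKO and dCD. In Hist4 they held 15, 21 and 33.

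At the gene starts, the strand bias was the Crick percentage of the 25 kb to the right of a transcription start minus that of the 25 kb to its left, and a positive value means that forks diverge there. All 67 members had at least 10 reads on each side in every library, and 20458 protein-coding genes did. Histone gene starts did not share the divergence of the average gene. The members' median was −2.33, −6.49 and −5.49 points in naive control, dKO and dCD and −3.03, −5.64 and −6.40 points in EpiLC. Over all protein-coding genes the median was 6.44, 6.34 and 6.68 points in naive and 4.24, 4.71 and 4.90 points in EpiLC. A value above 0 was found for 31, 24 and 26 members in naive and 31, 15 and 17 in EpiLC, that is 22.4% to 46.3% of members, against 66.8% to 69.8% of all genes. After correction for base composition (T minus A), the median of all genes was lower, 3.37, 3.48 and 3.69 points in naive and 2.16, 2.22 and 2.41 in EpiLC. The members' median was then −1.87, −4.83 and −3.55 points in naive and −1.64, −5.07 and −5.91 in EpiLC. Neighbouring members share most of the reads of their windows and all lie in 5 clusters, so they are not 67 separate observations.

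A bias of at least 10 points was seen at 12, 13 and 13 of 67 members in naive control, dKO and dCD (17.9%, 19.4% and 19.4%), where 40.1%, 40.3% and 41.3% of all genes passed. In EpiLC control, dKO and dCD it was seen at 2, 5 and 5 members (2.99%, 7.46% and 7.46%), where 27.3%, 28.6% and 29.9% of all genes passed. These counts moved with the setting. They were 11, 9 and 8 in EpiLC with libraries thinned to the smallest, 7, 1 and 6 in EpiLC with windows of 50 kb, and 7, 16 and 19 in naive with windows of 50 kb. The shares of all genes under these other settings are not given here, so these counts are not compared with all genes. A bias of −10 points or lower was more frequent at members. It was seen at 19, 28 and 28 members in naive (28.4%, 41.8% and 41.8%) against 12.9%, 13% and 13.4% of all genes, and at 16, 18 and 15 members in EpiLC (23.9%, 26.9% and 22.4%) against 5.83%, 6.04% and 5.91%. Histone starts were thus below the genome's share on the diverging side and above it on the converging side in each library, with windows of 25 kb and all reads.

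**Figure D4:**
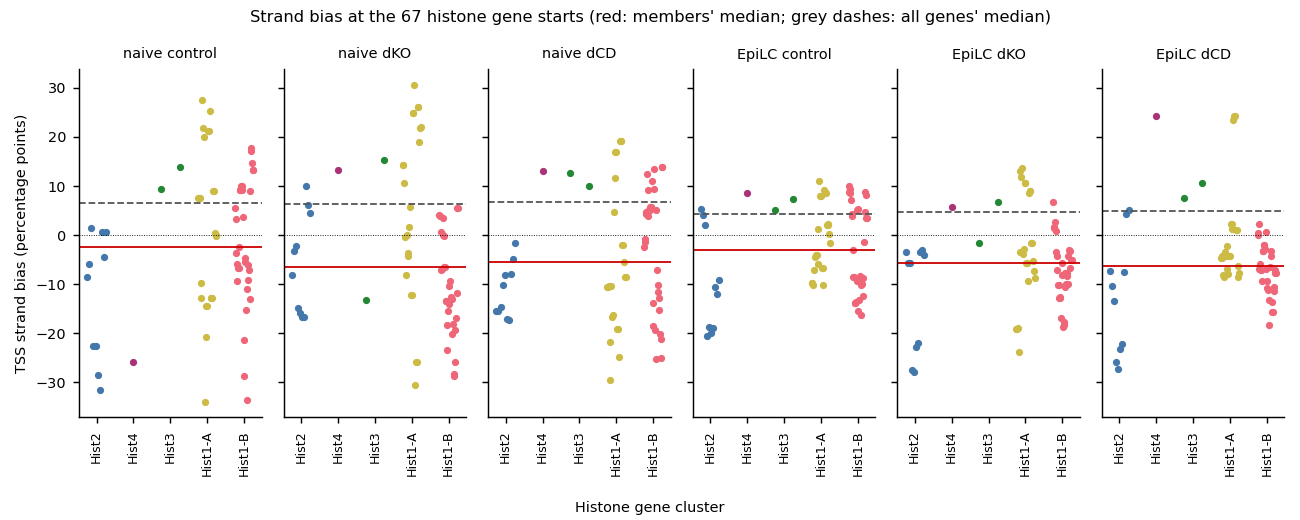
Strand bias in percentage points (y axis) at the starts of the 67 histone genes, grouped by cluster (x axis), in 6 panels for the 6 libraries. The red line, the members' median, lies between −6.49 and −2.33 points, and the dashed grey line, the median of all protein-coding genes, between 4.24 and 6.68 points.

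The H3 and H2A genes in the middle of Hist2 had the lowest means over the 6 libraries. Hist2h3c1 had −31.6, −16.7 and −17.2 points in naive control, dKO and dCD and −18.8, −22.0 and −22.2 points in EpiLC. Hist2h2aa1 had −28.4, −16.7 and −17.2 points in naive and −20.02, −22.8 and −23.3 in EpiLC. Hist2h3c2 had −22.6, −14.9 and −10.2 points in naive and −20.6, −27.5 and −25.8 in EpiLC, and Hist2h2aa2 had −22.6, −15.9 and −8.03 points in naive and −18.7, −27.9 and −27.3 in EpiLC. For each of these 4 genes the interval lay below 0 in 4 of 6 libraries, the exceptions being naive dKO and naive dCD, and their windows overlap. Toward the edges the convergence weakened, and the means over the 6 libraries were −6.27 points at Hist2h2ab, −6.08 at Hist2h2ac, −5.44 at Hist2h2be, −3.15 at Hist2h4, −2.33 at Hist2h3b and −0.762 at Hist2h2bb.

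The opposite sign was found at the small clusters. Hist3h2a, an H2A gene, had 13.8, 15.2 and 9.95 points in naive control, dKO and dCD and 7.33, 6.67 and 10.6 points in EpiLC, and its mean of 10.6 points was the highest of all members, although each of the 6 intervals covers 0. Its neighbour Hist3h2ba had 9.48, −13.2 and 12.7 points in naive and 5.14, −1.52 and 7.58 in EpiLC, so that both dKO libraries were below 0. Hist4h4 had −25.9, 13.3 and 13.2 points in naive and 8.64, 5.65 and 24.3 points in EpiLC, with naive control alone below 0. The naive control value has an interval of −42.3 to −7.06 points, from 49 reads on the side with fewer.

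In Hist1-A the lowest means were found near the left edge and the highest at the right edge. Hist1h2bm, an H2B gene, had −12.8, −0.481 and −21.8 points in naive control, dKO and dCD and −7.07, −23.7 and −8.14 in EpiLC. Hist1h4j had −9.67, −8.18 and −29.5 points in naive and −4.38, −3.38 and −8.51 in EpiLC, and the interval lay below 0 in 2 of 6 libraries for Hist1h2bm and in 1 of 6 for Hist1h4j. Hist1h4k spread from −10.3 to 27.5 points, and Hist1h2bl at the left edge from −19.2 to 14.2. At the right end Hist1h2ah and Hist1h2bk, which share a start region, had 8.89, 26.2 and −1.98 points in naive and 2.10, −1.68 and 1.05 in EpiLC, and Hist1h2bj had −0.182, 22.0 and −8.57 points in naive and −1.71, −8.79 and −7.65 in EpiLC. Members of the inverted repeat ranged widely in both directions, from −30.6 to 30.6 points at Hist1h4m and Hist1h4n in naive dKO.

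The 6 linker histone H1 genes encode proteins that compact nucleosome arrays, and as a family they had the highest median share of unique words. Hist1h1t, the testis form, had −15.2, −13.0 and −19.4 points in naive control, dKO and dCD and −9.26, −17.8 and −18.4 points in EpiLC, with an interval below 0 in 2 of 6 libraries. Hist1h1c had −33.6, −13.1 and 5.16 points in naive and −16.3, −7.80 and −6.43 in EpiLC, and Hist1h1e had −28.6, −14.1 and −18.5 in naive and 5.38, −8.15 and −9.26 in EpiLC. Hist1h1d stayed between −7.08 and 9.29 points. Hist1h1a had 14.7, −11.9 and −25.1 points in naive and 8.15, −6.70 and −7.11 in EpiLC, and Hist1h1b of Hist1-A had −33.9, 1.63 and 4.70 in naive and 1.18, −3.93 and −6.81 in EpiLC. In EpiLC control 4 of 6 H1 genes were above 0 and in EpiLC dKO and dCD none was, where 31, 15 and 17 of all 67 members were above 0. At least 4 of the 6 intervals of each H1 gene cover 0.

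Among the other members of Hist1-B, Hist1h4h at the left edge had 5.50, 4.18 and −2.50 points in naive control, dKO and dCD and 10.1, 6.81 and 0.443 points in EpiLC, which was the highest mean of the cluster with 4.09 points. Hist1h2ba and Hist1h2aa, the testis H2B and H2A genes that share the right edge, had 13.3, 5.50 and 13.9 points in naive and 3.48, −5.11 and −7.78 points in EpiLC. Hist1h3b had −13.1, −28.7 and −12.9 points in naive and −12.4, −9.90 and −15.7 in EpiLC, and Hist1h4c had −10.9, −12.7 and −25.3 points in naive and −8.38, −10.5 and −13.3 in EpiLC. For each of these last 2 genes, which the rule names for their low means, the interval lay below 0 in 2 of 6 libraries and covers 0 in 4. Hist1h2be, whose annotated start lies far from its coding copy, had a mean of −9.69 points, and Hist1h2ac a mean of −7.90 points.

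Forks that move with transcription were counted within 5 kb of the middle of each gene, from Crick reads at plus-strand genes and Watson reads at minus-strand genes. Over all members 49.9%, 49.2% and 49.8% of reads were co-directional in naive control, dKO and dCD and 50.1%, 49.3% and 49.9% in EpiLC. Over all protein-coding genes the share was 54.3%, 53.8% and 54.2% in naive and 52.6%, 52.9% and 52.9% in EpiLC. Windows of neighbouring members overlap, and neighbours on opposite strands count the same reads with opposite sign, which pulls the members' total toward 50%, so it carries no interval here. Summed over the 6 libraries, 24 of the 64 members with reads (37.5%) had an interval above 50% and 24 (37.5%) one below it. Of 21517 protein-coding genes with reads, 40.1% had an interval above 50% and 24.1% one below it. The members' even split is subject to the same sharing of reads.

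Along the chromosome the share followed strand and position. In the first 200 kb of Hist1-B, all 11 plus-strand members had 60.1% to 78.5% co-directional reads with intervals above 50%, and all 9 minus-strand members had 23.4% to 42.2% with intervals below 50%. Hist1h4h, at the left edge, had the highest value with 78.5% (74.5 to 82.1), and the minus-strand Hist1h1e the lowest with 23.4% (18.7 to 28.8). Farther right, 7 plus-strand members had 32.4% to 53.3% and 4 minus-strand members 50.2% to 67.7%. Genes of a divergent H2A and H2B pair lie on opposite strands of the same bins, so their shares mirror each other, as at the edge pair of Hist1h2ba with 67.7% (61.6 to 73.4) and Hist1h2aa with 32.4% (26.5 to 38.6).

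In Hist1-A the order of the strands was reversed. The 8 minus-strand genes with reads in its left part ranged from 50.3% (44.7 to 55.9) at Hist1h2bl to 72.8% (66.7 to 78.2) at Hist1h1b, and the minus-strand genes of the right end, Hist1h2ah, Hist1h4i and Hist1h2ag, had 22.9%, 27.04% and 28.1%. The plus-strand gene Hist1h2bk at the right end had 75.8% (71.2 to 79.9). In Hist2 the share at plus-strand genes fell from 61.6% at Hist2h2ab through 42.4% at Hist2h2aa1 to 27.7% at Hist2h3b.

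**Figure D5:**
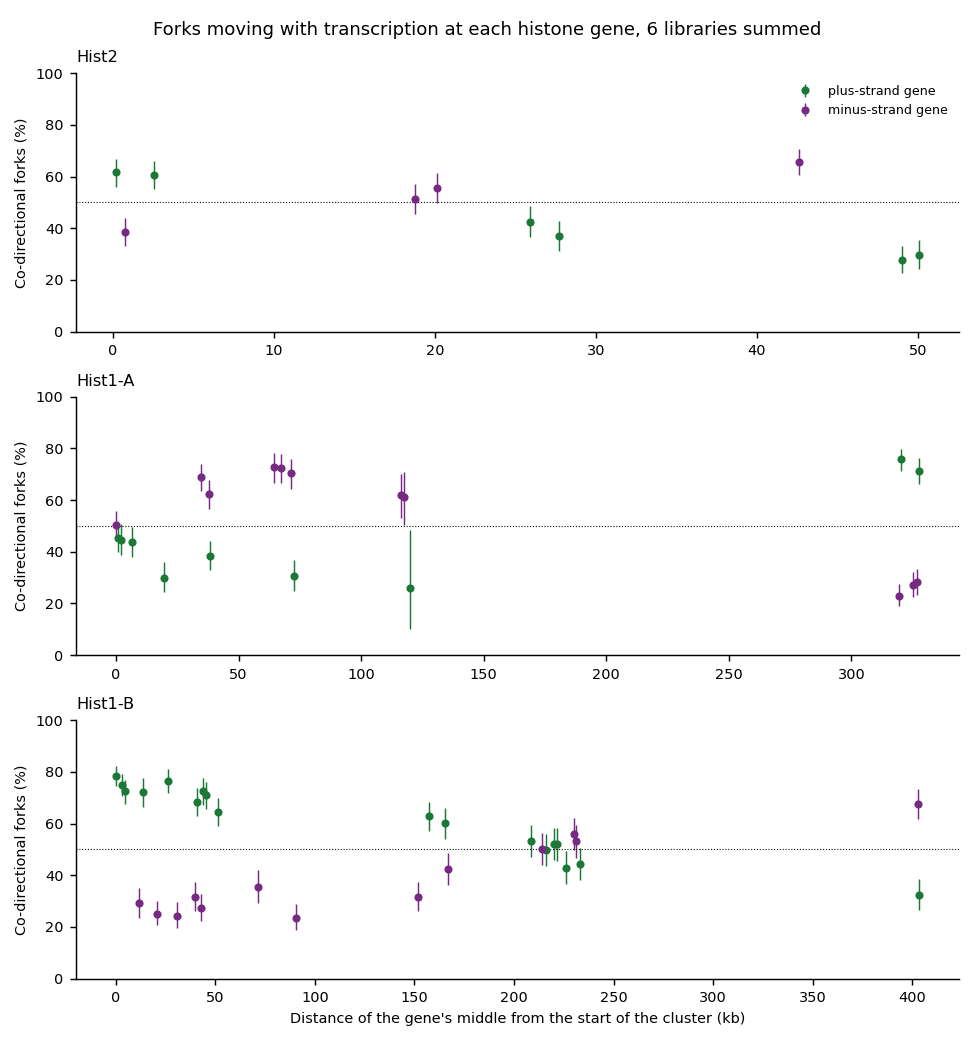
Percentage of reads from forks moving with transcription (y axis) at each gene against its distance from the start of the cluster in kb (x axis), for Hist2, Hist1-A and Hist1-B, 6 libraries summed, with exact 95% intervals and colours for the gene's strand. Plus-strand genes lie at 60.1% to 78.5% and minus-strand genes at 23.4% to 42.2% in the first 200 kb of Hist1-B.

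By family, the H1 genes had 50.8%, 55.6% and 57.9% co-directional reads in naive control, dKO and dCD and 57.4%, 55.9% and 53.5% in EpiLC. H3 genes had 50.2% to 54.3%, H4 genes 51.3% to 54.0%, H2B genes 49.3% to 50.9% and H2A genes 46.2% to 50.2%. Reads are counted more than once in these sums, and pairs such as Hist2h2ab and Hist2h2ac, of 1 family on opposite strands, cancel to 50%, so no difference between families is read from them.

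The libraries of the mutants were then set against the control of the same state. Of 20 differences, mutant minus control in 5 clusters and both states, 1 interval excluded 0. Of windows tiled over the genome that were as long as a cluster, with at least 10 reads in both libraries and 100 in the flanks, 15.3% on average over the 20 comparisons had such an interval. The 1 interval was Hist1-B in naive dCD, with 62.0% against 56.1%, a difference of 5.81 points (0.665 to 10.9), where 34.2% of windows of that length had an interval that excluded 0. In Hist1-A the 4 differences lay between −0.220 and 1.63 points over the whole cluster, where opposite directions cancel. In its last 100 kb naive dCD minus control was 10.7 points (2.08 to 19.1), and in its first 100 kb −11.8 points (−23.2 to 0.171), while the intervals of naive dKO, EpiLC dKO and EpiLC dCD cover 0 in both stretches. In Hist4 they were −19.9 points (−49.5 to 16.6) in naive dKO, −16.3 (−45.1 to 17.2) in naive dCD, 9.52 (−21.5 to 37.0) in EpiLC dKO and 18.2 (−11.6 to 42.4) in EpiLC dCD, and in Hist3 they lay between −17.0 and −4.55 points, so that no difference was detectable at the depth of these small clusters. In EpiLC the differences in Hist1-B were −0.528 points (−3.39 to 2.33) for dKO and 0.202 points (−2.62 to 3.03) for dCD.

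In naive dCD the first 100 kb of Hist1-B differed more than the whole cluster, and there 89.9% (84.5 to 93.9) of 178 reads were Crick against 68.2% (61.6 to 74.3) of 220 reads in naive control, a difference of 21.7 points (13.8 to 29.1). The same stretch gave 3.54 points (−5.28 to 12.2) in naive dKO, −3.22 points (−8.14 to 1.74) in EpiLC dKO and 3.26 points (−1.52 to 8.06) in EpiLC dCD. The stretch was picked after its values were seen. Of 24497 windows of 100 kb with at least 50 reads in both libraries, 0.861% differed by at least as much in either direction, and 20.3% had an interval that excluded 0. The dCD library also had the wider spread of fork direction over the genome, and in units of each library's own spread the stretch lay 2.44 above an even share in naive dCD and 1.45 in naive control. It holds Hist1h4h, Hist1h1d, Hist1h1e and 4 of the 7 H3 genes of the cluster.

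In the flanks, 12 of 40 intervals excluded 0, 4 of 20 for dKO and 8 of 20 for dCD. Of windows of 200 kb tiled over the genome with at least 100 reads in both libraries, 14.6% had such an interval for dKO and 28.8% for dCD, so the larger number in dCD is also seen genome-wide. The largest differences in dCD were in the right flank of Hist1-A with 75.7% against 59.7% in naive (16.02 points, 5.78 to 25.7) and in the right flank of Hist4 with 64.2% against 53.6% in EpiLC (10.6 points, 6.23 to 14.9). In dKO the largest was the right flank of Hist4 in naive with 59.6% against 46.9% (12.7 points, 5.37 to 19.8). Between the controls, the left flank of Hist4 had 50% in EpiLC and 62.1% in naive, −12.1 points (−17.9 to −6.09), and its right flank 53.6% and 46.9%, 6.71 points (0.756 to 12.6). These were the 2 of 10 flank intervals that excluded 0, where 25.02% of 12487 genome windows of 200 kb had such an interval, and no interval of a cluster itself did.

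At the gene starts, the shares of members that differed between mutant and control lay on both sides of the shares of all genes. In naive dKO, 15 of 67 members were at least 10 points higher than in control and 21 at least 10 points lower, where 24.7% and 25.5% of all genes were. In naive dCD it was 20 higher and 18 lower, against 25.8% and 23.9% of all genes. In EpiLC dKO it was 3 higher and 6 lower, against 13.2% and 11.8%, and in EpiLC dCD 11 higher and 18 lower, against 14.2% and 11.1%. For EpiLC dKO the counts were 15 higher and 21 lower with libraries thinned to the smallest, 11 and 10 with windows of 10 kb, and 0 and 3 with windows of 50 kb, so no order against all genes is read from them. The higher members of EpiLC dCD numbered 2 with windows of 10 kb and 4 with windows of 50 kb. In naive, windows of 50 kb gave 13 lower in dKO and 9 higher in dCD. EpiLC control against naive control gave 19 higher and 18 lower, against 16.9% and 27.1%. Of the 18 lower members of EpiLC dCD (26.9%), 12 lay in Hist1-B, where neighbours share reads. The 19 higher members of EpiLC control (28.4%) were also above the share of all genes, 7 of them in Hist1-A and 8 in Hist1-B. With windows of 50 kb, 4 members were higher. The shares of all genes for other window lengths and for thinned libraries are not given here. Counts under those settings are therefore not compared with all genes.

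For read density, 4 of 20 ratios of mutant to control had an interval that excluded 1, all of them in dCD. Of genome windows as long as a cluster, 5.66% in dKO and 7.63% in dCD had such an interval on average, and the share was highest, at 14.9%, for the length of Hist1-B in EpiLC dCD. In Hist3 the density over flanks in EpiLC was 0.908 in dCD and 1.51 in control, a ratio of 0.602 (0.410 to 0.885), from 40 and 79 reads. In naive it was 0.718 and 1.15, a ratio of 0.624 (0.293 to 1.33), from 10 and 22 reads. In dKO the ratios were 0.798 (0.578 to 1.10) in EpiLC and 1.15 (0.641 to 2.07) in naive. As a share of the library the Hist3 cluster gave 0.424 times (0.282 to 0.628) the control in EpiLC dCD, and its flanks had 0.923 times the genome's density against 1.31 times in control. Chromosome 11 as a whole had 1.17 times the genome's density in EpiLC dCD and 1.19 times in EpiLC control. In Hist4 the EpiLC dCD library had 1.94 times (1.05 to 3.59) the control's density over flanks, from 33 and 15 reads, and as a share of the library 1.84 times (0.973 to 3.65), which covers 1, while chromosome 6 as a whole had 1.09 and 1.02 times the genome's density. As a share of the library, EpiLC dCD was also below control in Hist2 with 0.835 times (0.725 to 0.962) and in Hist1-A with 0.918 times (0.862 to 0.977), where the ratios over flanks cover 1.

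In Hist1-B the density over flanks was 1.17 times (1.02 to 1.34) the control's in naive dCD and 1.09 times (1.01 to 1.18) in EpiLC dCD. As a share of the library, the cluster itself gave 1.11 (0.997 to 1.23) and 0.995 (0.939 to 1.05) times the control. Its flanks had 1.45 times the genome's density in naive dCD against 1.52 in control, and 1.41 against 1.54 in EpiLC. In dKO the ratios over flanks were 1.12 (0.978 to 1.28) and 1.03 (0.949 to 1.11). Between the controls, Hist1-B in EpiLC had 1.14 times (1.02 to 1.27) and Hist4 0.410 times (0.201 to 0.833) the ratio in naive, the latter from 15 and 16 reads. Of genome windows as long as these clusters, 12.1% and 10.02% had an interval that excluded 1.

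Other genes of histone supply were read by the same measure. The 7 histone chaperone genes (among them Asf1a, Chaf1b and Nasp, which carry new histones to DNA) had median strand biases of 13.6, 12.6 and 17.0 points in naive control, dKO and dCD and 9.39, 9.51 and 13.2 points in EpiLC, with 5, 4 and 5 of 7 at 10 points or more in naive and 3, 3 and 5 in EpiLC, beside 40.1% to 41.3% and 27.3% to 29.9% of all genes. The 15 genes of histone mRNA synthesis and processing, such as Npat and Slbp, had medians of 7.88, 7.58 and 7.58 points in naive and 7.07, 0.747 and 9.92 in EpiLC. The 12 replication-independent histone genes had medians of −1.18, 6.83 and 11.8 points in naive and 8.19, 2.46 and 8.40 in EpiLC. H2afz, which encodes H2A.Z, had 26.5, 31.3 and 19.2 in naive and 24.8, 24.4 and 27.6 in EpiLC. H2afv, the other H2A.Z gene of the list, had −4.23, −7.81 and −14.6 in naive and 15.7, −3.57 and 7.25 in EpiLC. H3f3a, which encodes H3.3, had −17.6, −12.6 and −9.37 in naive and 0.141, −2.67 and −11.1 in EpiLC. H3f3b, which also encodes H3.3, had 6.88, 2.94 and 13.7 in naive and 11.8, 4.19 and 24.2 in EpiLC. Of these 12 genes, H2afx carries the stem-loop described above and so shares that mark with the members, and H2afj lies beside Hist4h4 and shares its reads.

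Among other gene clusters, the Crick share rose across Hoxd by 38.9 to 39.97 points in naive and 33.3 to 49.4 points in EpiLC from the left to the right 200 kb flank, and across Hoxa by 18.6 to 35.4 points. The same measure at the histone clusters stayed between −15.1 and 20.2 points. Hoxb rose by 10.1 to 22.5 points, and Hoxc ranged from −20.8 points in naive dCD to 2.63 points in EpiLC control.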

How the data were processed

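OK-seq libraries from 12 samples in 6 groups were used. Reads were sequenced from both ends and mapped by the authors with Bowtie2 (mm10), who deposited, for each group, a signal table of Watson and Crick reads per bp in 1 kb bins that sums both replicates. Every deposited value is a whole number of reads per bin, and reads per bin and strand were used here, without equalising library size. FastQC, Trim Galore and Picard are also named in the submitters' processing notes, without versions. How duplicates were treated is not given in the sources used here.

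Shares have exact binomial 95% intervals, differences of shares Newcombe intervals, ratios exact conditional intervals and ratios of ratios intervals on the log scale. With 1 value per group no test across samples was run. The measures were tested on simulated data. Python 3.11.15, NumPy 2.4.6, SciPy 1.17.1 and Matplotlib 3.10.9 were used.

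Members and lists were chosen with earlier results of these data known. The genes named were all members of clusters of 12 or fewer genes and, in larger clusters, the edge genes, the H1 genes, the 3 highest and 3 lowest mean strand biases and the members nearest a local maximum. Members named for their co-directional share outside this rule were chosen after their values were seen. Alternatives changed windows, flanks, left-out bins, base composition, depth, readable bases and the gap between clusters.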

Additional observations from a re-analysis of the deposited data

Results flagged for a closer look

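The difference between mutant and control was compared between the states for 2 mutants, 5 clusters and 3 regions each, 30 comparisons in all, and in 3 of them the counting interval of the difference between states excluded 0. Of windows of 200 kb tiled over the genome, with at least 100 reads in each library, 12.9% had such an interval. In the left flank of Hist2 the Crick share of dKO minus control was 7.93 points in naive and −1.47 in EpiLC, which differ by −9.41 points (−16.9 to −1.85). In the right flank of Hist3 it was 7.84 points in naive and −1.97 in EpiLC, a difference of −9.80 points (−17.3 to −2.20). In the left flank of Hist1-B dCD minus control was −4.39 points in naive and 3.78 in EpiLC, a difference of 8.17 points (1.43 to 14.8). All 3 lie in flanks and none inside a cluster, and the intervals leave out variation between replicates.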

How the results depend on the processing

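Of 253 values recomputed under other settings, 198 kept their direction and size within the limits set. With windows of 10 kb at gene starts, 56 members had enough reads. The members' median turned to 2.29 points in naive dKO. It was −2.14 and −3.43 points in naive control and dCD, and moved nearer to an even value in EpiLC control, dKO and dCD with −0.665, −1.01 and −1.98 points. Then 5 members of EpiLC control and 3 of EpiLC dCD reached 10 points, EpiLC dKO against control had 11 higher and 10 lower, and EpiLC dCD had 2 higher. With 50 kb windows the median turned to 0.650 points in naive control and lay between −6.05 and −1.24 points in the other libraries. Then 7 members of naive control, 7 of EpiLC control and 1 of EpiLC dKO reached 10 points. There were then 13 lower in naive dKO, 9 higher in naive dCD, 0 higher and 3 lower in EpiLC dKO, 4 higher in EpiLC dCD and 4 higher in EpiLC control against naive control. After correction for base composition (T minus A), 3 members of EpiLC dKO reached 10 points. With histone gene bins left out, 54 members had enough reads, 8 members of naive dCD and 3 of EpiLC dKO reached 10 points, 13 were lower in naive dKO, 12 higher in naive dCD and 8 lower in EpiLC control against naive control, and Hist4 has no density. With libraries thinned to the smallest, 11, 9 and 8 members reached 10 points in EpiLC control, dKO and dCD, and EpiLC dKO had 15 higher and 21 lower. The shares of all genes under these settings are not given here, so none of these counts is compared with all genes.

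The Crick share of the right minus the left flank depended on flank length. For flanks of 50 and 100 kb it was −39.0 and −25.0 points for Hist2 in naive control and −30.8 and −18.6 in EpiLC control, −5.59 and −3.75 for Hist4 in naive and 12.5 and 9.56 in EpiLC, and 15.6 and 14.9 for Hist3 in naive and 13.3 and 11.6 in EpiLC. For Hist1-B it was −15.7 and −10.7 in naive and −16.1 and −1.42 in EpiLC, where 200 kb gave 4.90 and 7.53, and for Hist1-A it was 18.4 in EpiLC with 100 kb. Density over flanks of 50, 100 and 500 kb was 1.48, 1.92 and 1.35 for Hist1-A in naive control, and for 50 and 500 kb 1.27 and 1.26 in EpiLC control. It was 0.877 for Hist1-B in naive control at 500 kb, and 0.718 and 0.967 in EpiLC control at 50 and 500 kb. Per uniquely readable base it was 1.19 for Hist2 in EpiLC control. Within 2 kb of a gene's middle, the co-directional share was 53.3% in EpiLC control and 51.4% in EpiLC dKO. The cause of these shifts was not tested. With a gap of 100 kb between genes there were 7 clusters. No paired analysis was possible because each deposited file sums the 2 replicates, and for the same reason no replicate could be left out. Depth limits single genes and the 2 small clusters most.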
